A study of Mus musculus with 2 samples.

Results

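Very long genes were examined in a map of chromosome domains of mouse olfactory sensory neurons. They were the 215 autosomal protein-coding genes whose annotated end minus start is at least 500 kb in GENCODE M21 (GRCm38), out of 20807 autosomal protein-coding genes (1.03%). Kirrel3, Robo2, Sema3a, Ncam2 and Trpm3 were left out by symbol; 3 of these 5 reach 500 kb in the annotation and Sema3a and Ncam2 do not. The 215 genes had a median length of 734 kb (502 to 4435 kb), 55 reached 1 Mb, and 116 lay on the plus strand. Together they covered 184 sequenced Mb, which is 7.68% of the autosomes. The rule uses annotated length and symbols alone, but the set was proposed with earlier results of these data known.

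The cells were mature neurons of the nose, taken from the olfactory epithelium at the adult stage from both sexes mixed (strain 129P2/OlaHsd) and sorted by fluorescence for Olfr17 (P2) from P2-GFP mice, with no treatment and no further modification given in the labels. In situ Hi-C with DpnII was run on 2 biological replicates of 23000 and 20000 cells, which form the only group. Hi-C ligates DNA that is in spatial proximity and counts these contacts, and a boundary marks a point that few of them cross. The authors combined the replicates before calling boundaries, so there is 1 list of 7576 bins of 5 kb (7169 on autosomes), each with a class (Strong or Weak) and a score without a stated unit. The class follows the score, with all Weak scores at or below 0.4996 and all Strong scores at or above 0.5002.

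A list pooled over replicates has no spread between samples, so no test was made. Intervals below are exact 95% Poisson or binomial intervals and cover counting error only, and SDs over chromosomes describe spread within the 1 map. How many contacts underlie the list is unknown, and the sort cannot be checked against marker genes, because no expression was measured. A position without a boundary is one where none was called.

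Many very long genes of the mouse and human genomes are expressed in neurons, where they encode synaptic adhesion molecules, guidance receptors, channels and scaffolds, and nearly all of their length is intron. Several coincide with common fragile sites, which break under replication stress. Boundaries in mammalian genomes often lie at active promoters or at sites bound by CTCF, the zinc finger protein that stops the cohesin complex as it extrudes chromatin loops.

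The sequences printed first are matches to the CTCF core consensus beside boundaries inside these genes, shown because they recur between genes. The 10 highest-scoring boundaries inside the genes were taken, and 6 of them had a match within 10 kb of the midpoint. Each line gives the nearest match, 12 bases in capitals, with 24 bases on either side, from the GRCm38 reference, 5′ to 3′ on the strand named.
Dlg2, chr7:92088137-92088196, plus strand: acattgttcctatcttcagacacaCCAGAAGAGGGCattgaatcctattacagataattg
Pde4d, chr13:109207342-109207401, minus strand: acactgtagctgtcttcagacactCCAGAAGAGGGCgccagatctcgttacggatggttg
Cadps2, chr6:23485871-23485930, plus strand: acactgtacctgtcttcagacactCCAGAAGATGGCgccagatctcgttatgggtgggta
Dlgap1, chr17:70681145-70681204, minus strand: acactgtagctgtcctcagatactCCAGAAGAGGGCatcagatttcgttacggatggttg
Plcb1, chr2:135330375-135330434, minus strand: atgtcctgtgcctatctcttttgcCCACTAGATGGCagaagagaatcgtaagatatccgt
Asic2, chr11:80892000-80892059, minus strand: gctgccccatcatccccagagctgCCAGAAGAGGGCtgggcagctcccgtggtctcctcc

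The windows of Dlg2, Pde4d, Cadps2 and Dlgap1, on 4 chromosomes, resembled each other along their whole length. Pde4d and Dlgap1 were identical at 55 of 60 positions (91.7%), Pde4d and Cadps2 at 54 (90%), and the least similar of these pairs, Dlg2 and Cadps2, at 40 (66.7%). The core matches of all 4 lie in sequence that the reference soft-masks as repetitive. Masking of the flanks was not examined, and their lower case as printed does not mark it. The matches of Plcb1 and Asic2 are unmasked, and neither window was over 43.3% identical to any other of the 6. The Plcb1 match also met the stricter CTCF consensus. The other 4 of the 10 boundaries, those in Stpg2, Gm20388 and Nav3 among them, had no core match within 10 kb; a missing match says only that these letters are not in that window.

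A total of 354 boundaries (4.94% of the autosomal ones) had their midpoint inside a very long gene. The density was 1.92 per sequenced Mb (1.73 to 2.13) inside these genes and 3.08 per Mb (3.01 to 3.16) in the rest of the autosomes. It was lower inside on 19 of 19 autosomes, with a mean of 1.97 ± 0.444 per Mb inside and 3.08 ± 0.222 per Mb outside (SD, n = 19 chromosomes). The boundaries inside also had lower scores. Their median score was 0.425 (quartiles 0.278 and 0.735), against 0.571 (0.320 and 1.00) elsewhere on the autosomes, and the median was lower inside on 17 of 19 chromosomes. The class was Strong for 145 of the 354 (41.0%, 35.8 to 46.3), against 54.6% of all autosomal boundaries and 55.3% of those elsewhere. Strong boundaries had a density of 0.788 per Mb inside and 1.71 per Mb outside, and Weak ones 1.14 per Mb inside and 1.38 per Mb outside, so the density of Strong boundaries differed by the larger factor.

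Boundaries inside the genes were counted per gene in the same way. At least 1 boundary lay inside 178 of 215 genes (82.8%, 77.1 to 87.6), against 13.2% of all autosomal protein-coding genes, most of which are far shorter than the usual distance between boundaries. A Strong boundary lay inside 106 genes (49.3%), against 8.31% of all genes. The number inside was 0 in 37 genes, 1 in 81, 2 in 56, 3 in 29 and 4 or more in 12. The count followed length (Spearman correlation 0.51 over 215 genes) while the density hardly did (0.07). Because 5 of the genes overlap another of them, the 354 boundaries make 359 pairs of gene and boundary, and positions and sequence features below are counted over these pairs.

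Density and strength were then set beside gene length. Boundaries per Mb of gene body were 5.17 in genes under 10 kb, 4.33 from 10 to 50 kb, 2.72 from 50 to 100 kb, 2.56 from 100 to 200 kb, 2.23 from 200 to 500 kb and 1.92 in the very long genes. The Strong share in the same order was 63.3, 70.0, 60.7, 58.7, 51.5 and 41.0%, and the median score was 0.682, 0.718, 0.634, 0.586, 0.520 and 0.425. The very long genes therefore stood at the low end of an order that runs through all classes from 10 kb upward. Among themselves they kept no such order: the density was 1.85 per Mb (1.44 to 2.33) from 500 to 600 kb, 1.73 from 600 to 750 kb, 1.77 from 750 to 1000 kb and 2.11 (1.80 to 2.46) from 1 Mb, with overlapping intervals.

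**Figure D1:**
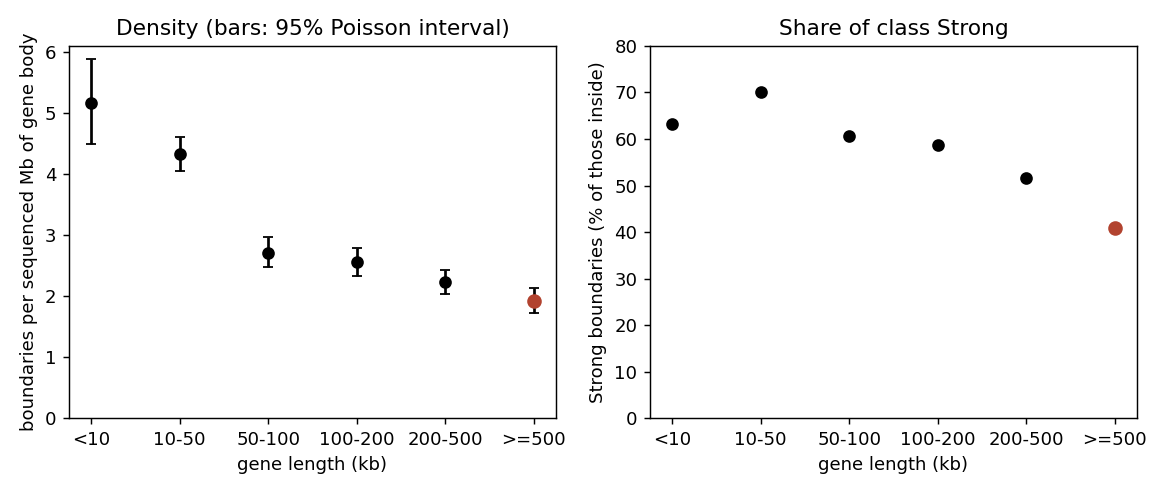
Boundaries per sequenced Mb of gene body (left, points with exact 95% Poisson intervals) and the share of these boundaries of class Strong in percent (right), by gene length in kb. The very long genes, in red, had 1.92 boundaries per Mb and 41.0% Strong, the lowest point in both plots.

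The lower density inside long genes was compared at equal distance from protein-coding transcription start sites (TSSs), since most of a long gene lies far from any of them. Beyond 250 kb from a TSS, which is 98.9 Mb of the very long genes, the density was 1.68 per Mb (1.43 to 1.95) inside them, 1.85 (1.27 to 2.62) inside other protein-coding genes and 1.84 (1.72 to 1.96) between genes. From 100 to 250 kb it was 2.03, 2.12 and 1.88 per Mb in the same order, and these intervals overlapped too. From 50 to 100 kb it was 1.55 (1.01 to 2.27) inside the very long genes, 2.26 (2.03 to 2.51) inside other genes and 3.35 (3.09 to 3.63) between genes. From 10 to 50 kb it was 2.91 (2.12 to 3.91), 2.81 (2.64 to 3.0) and 4.28 (4.05 to 4.51) per Mb, and under 10 kb 4.13 (2.56 to 6.32), 5.45 and 5.74 per Mb. At matched distance the intervals of the very long genes and of other genes overlapped in all 5 classes, while the very long genes lay below the space between genes from 10 to 100 kb. The Strong share beyond 250 kb was 28.3% inside the very long genes, 31.3% inside other genes and 15.7% between genes. CTCF core matches there had densities of 15.9 per Mb inside the very long genes, 18 inside other genes and 12.1 between genes.

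**Figure D2:**
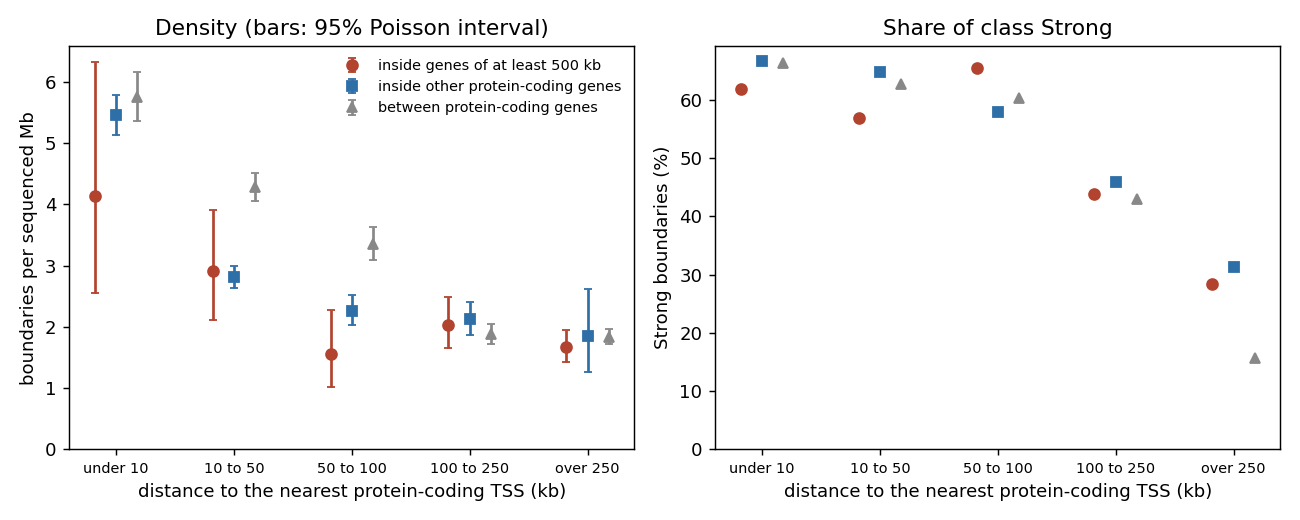
Boundaries per sequenced Mb with exact 95% Poisson intervals (left) and the Strong share in percent (right), by distance to the nearest protein-coding TSS in kb, inside genes of at least 500 kb (red circles), inside other protein-coding genes (blue squares) and between genes (grey triangles). Beyond 250 kb the densities were 1.68, 1.85 and 1.84 per Mb, and the Strong shares 28.3, 31.3 and 15.7%.

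Synaptic scaffold genes held the boundary with the highest score. Dlg2 (chr7:90476672-92449247, plus strand), which encodes the postsynaptic scaffold PSD-93, had 5 boundaries. The Strong one with a score of 3.30 lay 1621 kb from the TSS, at chr7:92095001-92100000, in a bin without an annotated exon, and the highest-scoring boundary elsewhere on the autosomes had 4.38. The other 4 lay 10.8 kb (score 1.26, Strong), 771 kb (0.468, Weak), 981 kb (0.337, Weak) and 1966 kb (0.260, Weak) from the TSS. The scores of the 5 Dlg2 boundaries were thus very unequal. Magi2, a scaffold of the synapse and of cell junctions (1478 kb), had 2 Weak boundaries and a Strong one with a score of 1.12 that lay 2.29 kb before its 3′ end. Sgcz, a sarcoglycan gene (1139 kb), had Weak boundaries only (0.220 and 0.312). Dlgap1, which encodes a partner of PSD-95, had scores of 0.215, 0.269 and 2.23, and Cadps2, for a priming factor of dense core vesicles, had 1 boundary with 2.26. The group was drawn broadly, and besides scaffold genes it holds Erbb4, Nrg1, Nrg3, Sgcd and Sgcz. Over its 19 genes 17 had a boundary inside, with 2.07 per Mb (1.44 to 2.87) and 14 of 35 boundaries Strong.

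The longest genes of synaptic adhesion held mainly Weak boundaries, as did the very long genes as a whole, where 41.0% were Strong. Cntnap2 (chr6:45059357-47304213, plus strand), the gene of CASPR2, which gathers potassium channels on axons, had 6 boundaries spread from 218 to 2233 kb, with scores of 0.239, 0.271, 0.223, 0.355, 0.755 and 0.208. Only the fifth of them, at 1933 kb, was Strong. Lsamp (chr16:39984361-42181679, plus strand), an immunoglobulin adhesion molecule of the limbic system, also had 6, with scores of 0.396, 0.275, 0.799, 0.242, 0.367 and 1.13, and its strongest lay 14.2 kb before the 3′ end. Ptprd (2271 kb), a receptor phosphatase that organises presynaptic sites, had only 2 boundaries, with scores of 0.770 at 609 kb and 0.275 at 1154 kb, which left its last 1116 kb with none. Lrrc4c (1314 kb), the gene of netrin-G ligand 1, had 3 Weak ones. Lingo2 and Cntn5 (1245 and 1244 kb) had 1 Weak boundary each, the lowest densities among genes with any, 0.803 per Mb.

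Nrxn3 (1612 kb), a presynaptic neurexin, had its boundaries in the part next to the TSS. There were 2, with scores of 0.407 at 125 kb and 1.50 at 455 kb, and none over its last 1157 kb. Csmd1 (1643 kb), of the CUB and sushi domain family, had 4 boundaries, with scores of 0.449, 0.279, 0.651 and 0.231, whereas none was called in its relatives Csmd3 (1211 kb) and Csmd2 (580 kb).

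Across the adhesion groups, 17 of 18 immunoglobulin and leucine-rich repeat genes had a boundary inside (1.66 per Mb, 1.14 to 2.34; 9 of 32 Strong). Of the neurexins, their ligands, teneurins and latrophilins it was 11 of 17 (1.62 per Mb, 1.08 to 2.34, with 8 of 28 Strong), and this group also holds the Csmd genes and Astn2. Of the cadherins, protocadherins and catenins 8 of 9 had a boundary inside (1.66 per Mb, 0.947 to 2.69, with 6 of 16 Strong). In this last group Ctnna3, an alpha-catenin, had a Strong boundary (0.650) 97.4 kb from the TSS and 2 Weak ones, while Pcdh15, a protocadherin of hair cell tip links, and Cdh12 had 3 Weak ones each.

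In the 3 longest guidance receptor genes the boundary with the highest score lay nearest the 3′ end. Epha6, an ephrin receptor (952 kb), had Weak scores of 0.350, 0.220 and 0.282 and then 1.12 at 913 kb. Dcc, a netrin receptor (1097 kb), had 0.380 and 0.282 and then 0.563 at 1094 kb, which is 3.87 kb before the 3′ end. Robo1, a Slit receptor (738 kb), had 0.747 at 299 kb and 1.62 at 684 kb, where an alternative start of the gene is annotated within 10 kb. The order was the opposite in Sema6d, a shorter gene of the group, with 0.366 at 2.53 kb from the TSS and 0.284 at 518 kb. Slit3 had 1 Weak boundary, of 0.286 at 271 kb. No boundary lay in Unc5d, a repulsive netrin receptor, and the 6 genes of the group together had 2.65 per Mb (1.37 to 4.63).

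Glutamate and GABA receptor genes held almost only Weak boundaries. All 7 glutamate and GABA receptor genes had a boundary inside, yet 1 of their 10 boundaries was Strong, against 41.0% inside all very long genes. A share that rests on 10 boundaries carries a large counting error. The metabotropic receptor genes Grm7 (0.390 and 0.274) and Grm8 (0.491) had Weak ones. Among ion channels and their partners, 9 of 14 had a boundary (1.54 per Mb, 0.863 to 2.54; 7 of 15 Strong). Kcnip4 and Dpp6, auxiliary subunits of A-type potassium channels, had a Strong boundary each, of 0.735 and 1.11, beside Weak ones of 0.428 and 0.459 in Kcnip4 and 0.286 in Dpp6. Cacna2d3, a calcium channel subunit, had 1 Weak one of 0.297.

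Signalling genes had the highest density of the groups, 2.85 per Mb (1.99 to 3.97), and 17 of 35 boundaries Strong. The group contains Fgfr2, whose annotated model spans 29 other TSSs, and was at 2.69 per Mb (1.74 to 3.97) without it. Pde4d (chr13:108449948-109953461, plus strand), a cAMP phosphodiesterase with many promoters, had scores of 0.410, 2.39, 1.11, 0.843 and 0.461 at 383, 763, 1108, 1303 and 1463 kb; alternative starts of the gene lay within 10 kb of the last 2. Prkg1, the cGMP-dependent protein kinase (1201 kb), had 3 Weak boundaries and a Strong one of 0.529. Plcb1, a phospholipase C (689 kb), had a single boundary with a score of 2.29.

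Fragile site and lipoprotein receptor genes had long runs of Weak boundaries. Lrp1b (2058 kb), an endocytic receptor, had scores of 0.258, 0.257, 0.410 and 0.260, and Fhit (1612 kb), a dinucleoside hydrolase at a well-known human fragile site, had 0.309 and 0.249. Macrod2 (1998 kb), an ADP-ribose hydrolase, had a Strong boundary of 0.821 at 62.2 kb, Weak ones of 0.254 at 327 kb and 0.220 at 1797 kb, and between the last 2 the longest stretch with none inside any of the 215 genes, 1470.0 kb. The group had a boundary in 12 of 13 genes, 1.89 per Mb (1.26 to 2.73) and 7 of 28 Strong, against 41.0% Strong inside all very long genes.

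Transcription and RNA-binding genes, grouped together with Pard3b, had a boundary in 15 of 18 cases, at 1.89 per Mb (1.26 to 2.73), with 11 of 28 Strong. Camta1, a calmodulin-binding transcription activator (945 kb), had 5, with scores of 0.567, 0.417, 0.238, 1.14 and 0.219, and one of the highest densities of any of the genes, 5.29 per Mb. Auts2, a neurodevelopmental regulator (1106 kb), had 2 Strong ones (0.663 and 0.842), Rbms3 1 Strong one (0.617), and Rbfox1, a splicing regulator (1526 kb), 2 Weak ones (0.416 and 0.210). The 80 genes in none of the groups had 1.96 per Mb (1.62 to 2.35). With Fgfr2 left out of the signalling genes, every group interval included the 1.92 per Mb of all very long genes.

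**Figure D3:**
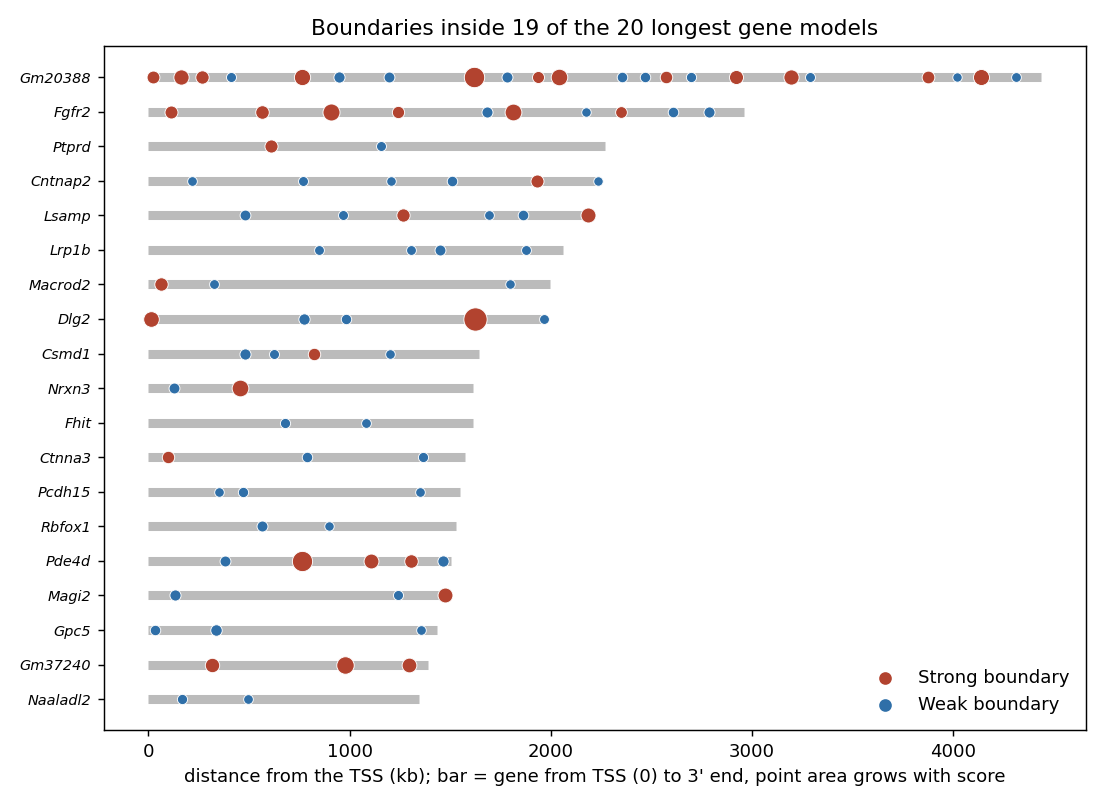
Boundaries inside 19 of the 20 longest gene models, from the TSS at 0 to the 3′ end, with distance in kb on the horizontal axis; red points are Strong and blue points Weak boundaries, and point area grows with score. Gm20388 and Fgfr2 held 22 and 10 boundaries, the others at most 6, and the largest point is the Dlg2 boundary of 3.30 at 1621 kb.

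The highest densities were those of Sorcs1 (5.60 per Mb), B3galt1 (5.38), Camta1 (5.29) and Smyd3 (5.28), followed by Gm20388 (4.96). Sorcs1, a sorting receptor, reached it with 3 Weak boundaries in 535 kb, B3galt1, a galactosyltransferase, with 1 Weak and 2 Strong ones, and Smyd3, a SET and MYND domain methyltransferase, with 1 Strong (1.33) and 2 Weak ones. Densities that rest on 3 boundaries carry large counting errors.

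A few of the longest gene models span many other genes in this annotation. Gm20388 (chr8:119910841-124345722, plus strand) spans the TSSs of 72 other protein-coding genes and had 22 boundaries, 12 Strong (0.582 to 2.42) and 10 Weak (0.201 to 0.449). Fgfr2 (chr7:130162451-133123350, minus strand), a fibroblast growth factor receptor, had 10 boundaries, 6 of them Strong with a highest score of 1.58. Gm37240 spans 7 and had 3 Strong ones. With 3 overlapping models on chromosome 18 (Gm42416, Gm37013 and Gm37388, with 57, 54 and 52 other TSSs), 6 models held at least 5 other TSSs. Without these 6 the density was 1.82 per Mb, the share of genes with a boundary 82.3%, the Strong share 38.8% and the median score 0.410. No other protein-coding TSS lay inside 181 of the 215 genes.

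Along the gene, boundaries were spread over the whole body. Their median relative position, from 0 at the TSS to 1 at the 3′ end, was 0.497, and the 10 equal parts of the gene held 36, 24, 45, 33, 42, 32, 30, 41, 33 and 43 boundaries in order from the TSS, or 1.29 to 2.42 per Mb. The part next to the TSS was thus not richer than those in the middle, and the second held fewest. Strength differed with distance from the ends. The Strong share was 54.5% (42.8 to 65.9) for boundaries within 100 kb of either end and 37.2% (31.6 to 43.2) for the 282 farther inside, with median scores of 0.540 and 0.407.

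The ends themselves were examined from both sides. Within 60 kb upstream of the TSS there were 70 boundaries, 5.43 per Mb (4.23 to 6.86), and within 60 kb downstream, inside the gene, 22, or 1.71 per Mb (1.07 to 2.58). Of the 92 boundaries near the TSS 76.1% (66.1 to 84.4) were thus outside the gene. The share was 72.2% for genes of 100 to 500 kb, so the excess on the upstream side was shared by the next length class. It was 54.4% for all autosomal protein-coding genes, but 7287 of these are under 10 kb and 8733 from 10 to 50 kb. In such genes the 60 kb on the gene side run past the 3′ end, so 54.4% is not a share outside the gene. In windows of 20 kb the density was highest 20 to 40 kb upstream, at 6.05 per Mb, and lowest at 0.930 per Mb, both 40 to 60 kb and 80 to 100 kb inside the gene. The limit of 60 kb was chosen after this profile was seen. None of the 70 upstream boundaries lay within 10 kb of another protein-coding TSS, against 158 of 740 for genes of 100 to 500 kb and 2519 of 5868 for all genes. For 55 of the 70 this was fixed in advance, because their gene has no other protein-coding TSS within 100 kb of its own. On the downstream side of the 3′ end it was 8 of 56, against 232 of 730 for genes of 100 to 500 kb.

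The asymmetry at the TSS was as large in genes without close neighbours, and CTCF core matches were about as dense on both sides. For the 161 very long genes with no other protein-coding TSS within 100 kb of their own, 55 boundaries lay within 60 kb upstream and 12 inside, an outside share of 82.1% (70.8 to 90.4). Core matches had densities of 26.9 per Mb in the 60 kb upstream of all 215 TSSs and 24.6 per Mb inside. A core match lay within 10 kb of 28 of the 70 upstream boundaries (40%) and of 13 of the 22 inside (59.1%).

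At the 3′ end the same asymmetry was smaller. There were 56 boundaries within 60 kb downstream, 4.34 per Mb (3.28 to 5.64), and 34 within 60 kb inside, 2.64 per Mb (1.83 to 3.68), so that 62.2% (51.4 to 72.2) lay outside the gene. The share was 63.1% for genes of 100 to 500 kb and 48.8% for genes of at least 750 kb. Over all genes it was 51.9%, where the 60 kb on the gene side again run past the other end of short genes. The density was highest 20 to 40 kb downstream of the end, 5.58 per Mb, and lowest 80 to 100 kb inside it, 0.698 per Mb.

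**Figure D4:**
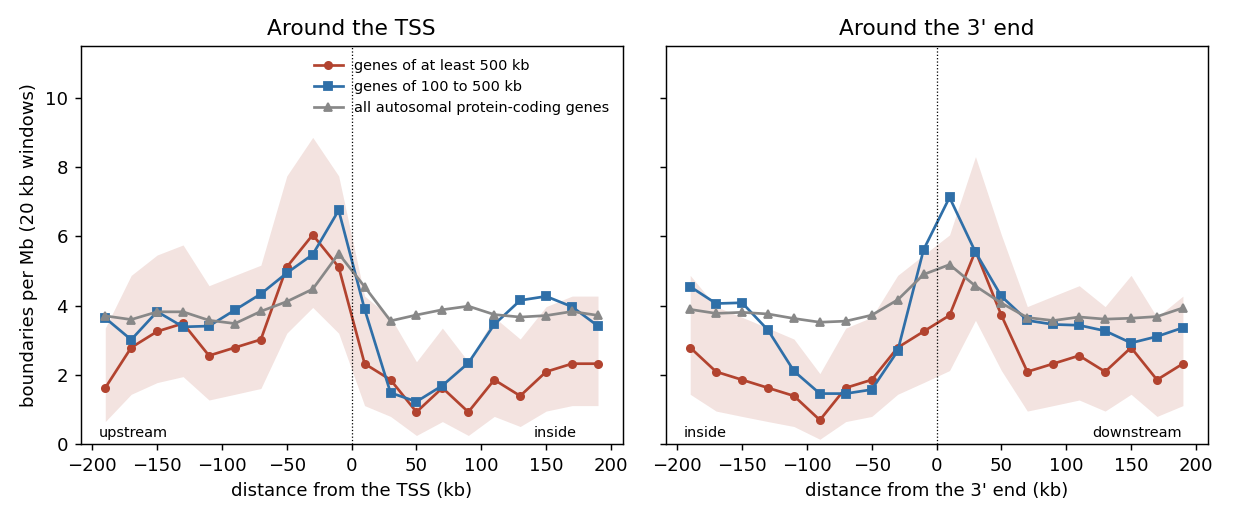
Boundaries per Mb in windows of 20 kb, by distance in kb from the TSS (left) and from the 3′ end (right), for genes of at least 500 kb (red, with exact 95% Poisson intervals shaded), genes of 100 to 500 kb (blue) and all autosomal protein-coding genes (grey). For the very long genes the highest windows lie outside the gene, 6.05 per Mb upstream of the TSS and 5.58 per Mb downstream of the 3′ end. For genes shorter than 200 kb, windows on the gene side run past the other end of the gene.

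For boundaries directly at an end, the intervals of the very long genes included the share over all genes, but not that of every class of long genes. One was called within 10 kb of the TSS of 18 very long genes (8.37%, 5.04 to 12.9), against 11.7% of all autosomal protein-coding genes, and 13 of the 18 lay upstream. The share was 12.4% for genes of 100 to 200 kb, within this interval, and 14.7% for genes of 200 to 500 kb, above it. With any annotated transcript start of the gene counted, the share of very long genes was 21.4%, which was not computed over all genes. The very long genes had a median of 7 annotated transcripts, against 4 over all genes, so 21.4% cannot be set beside 11.7%. Of the 18 within 10 kb of the gene start, 12 were Strong. The highest score was that of Fstl5, a follistatin-like gene, with 3.05 at 6.77 kb upstream, followed by Wwox (1.41), an oxidoreductase gene at a fragile site, Clstn2 (1.29), a calsyntenin, Kcnma1 (1.22), the BK potassium channel, and Cdkal1 (1.06), a tRNA-modifying enzyme. The lowest were Hdac9 (0.325) and Cntn5 (0.253). Within 10 kb of the 3′ end it was 19 genes (8.84%, 5.40 to 13.5), against 10.5% of all genes. The share there was 15.8% for genes of 100 to 200 kb, above this interval, and 11.97% for genes of 200 to 500 kb, within it. The 19 genes included Asic2 (1.79), an acid-sensing channel, Auts2 (1.67), Hpse2 (1.48), Cdh13 (1.47) and Ank2 (1.16), an ankyrin. Fstl5, Wwox, Clstn2, Kcnma1, Cdkal1, Hdac9, Cdh13 and Ank2 were chosen for naming after their values were seen.

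Only Auts2 and Hpse2 had a boundary within 10 kb of both ends (0.93%, against 3.6% of all genes, many of which are so short that 1 boundary can lie near both ends). Hpse2, for an inactive relative of heparanase, had scores of 0.686 at the TSS and 1.48 at the 3′ end and none inside, so that its 602 kb filled 98.7% of the interval between 2 boundaries. Auts2 had 0.586 at the TSS, 1.67 at the 3′ end and its 2 Strong boundaries inside.

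The promoters of 3 genes overlapped a boundary bin and are printed to show their content of CG dinucleotides, in capitals. They are RefSeq promoters (GRCm38.p6), 250 bases before to 50 after the start. For Cntnap2 that start is 704 bases from the GENCODE one.
Cdkal1, chr13:29855624-29855923, minus strand: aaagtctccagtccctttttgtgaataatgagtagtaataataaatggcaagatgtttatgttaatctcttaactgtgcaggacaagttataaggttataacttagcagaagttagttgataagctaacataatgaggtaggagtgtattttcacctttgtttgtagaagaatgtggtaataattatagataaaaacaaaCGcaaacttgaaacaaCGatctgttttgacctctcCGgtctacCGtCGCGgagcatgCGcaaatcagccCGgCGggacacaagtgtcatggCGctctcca
Syt1, chr10:109010926-109011225, minus strand: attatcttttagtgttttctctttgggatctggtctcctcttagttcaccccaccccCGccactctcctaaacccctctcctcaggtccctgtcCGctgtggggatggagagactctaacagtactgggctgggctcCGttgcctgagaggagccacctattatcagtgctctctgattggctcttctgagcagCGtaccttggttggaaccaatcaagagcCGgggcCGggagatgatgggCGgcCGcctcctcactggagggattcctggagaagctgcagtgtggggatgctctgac
Cntnap2, chr6:45059811-45060110, plus strand: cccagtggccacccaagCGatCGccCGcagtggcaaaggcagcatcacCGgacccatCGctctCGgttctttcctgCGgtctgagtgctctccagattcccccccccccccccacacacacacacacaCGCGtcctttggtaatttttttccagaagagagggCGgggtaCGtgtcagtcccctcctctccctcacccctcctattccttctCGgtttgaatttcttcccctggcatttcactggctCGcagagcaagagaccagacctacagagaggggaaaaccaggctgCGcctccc

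These promoters hold 10 (Cdkal1), 8 (Syt1, the calcium sensor of transmitter release) and 14 (Cntnap2) CG dinucleotides. The boundaries that overlap them had scores of 1.06, 0.537 and 0.412. Promoters were found in RefSeq for 164 of the 215 genes. Their median was 15 CG dinucleotides, so the 3 printed ones were below the median of the very long genes. The median over all 32851 promoters was 7, but the sets are unlike, here and for the motifs below. Each of the 164 genes entered with 1 promoter, the nearest to its GENCODE start. The 32851 were not chosen in this way and outnumber the 21755 protein-coding genes on autosomes and X. No match to the CTCF core consensus (both strands) lay in any of the 164, against 1.22% of all promoters, and TATAAA (both strands) lay in 15 (9.15%), against 13.6% of all.

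In the 37 very long genes without a boundary inside, the whole gene lay in 1 interval between neighbouring boundaries. These intervals measured 550.0 to 1990.0 kb (median 900.0 kb) and the gene filled 25.9 to 98.7% of its interval (median 67.4%). The 10 longest such genes were Csmd3, Sntg1, Cdh18, Npas3, Adgrl3, Lrrtm4, Inpp4b, Adgrb3, Hs6st3 and Malrd1. Csmd3, at 1211 kb the only gene of over 1 Mb among them, filled 82.7% of an interval of 1465 kb. Adgrl3, the adhesion receptor latrophilin 3 (805 kb), filled 97.6%, with boundaries 7.64 kb before its TSS and 12.4 kb after its 3′ end. Npas3, a neuronal transcription factor (823 kb), filled 93.6%, with boundaries 46.2 kb before and 10.3 kb after it. Syt1, Fstl5 and Kcnq5, a potassium channel, also filled over 90% (93.3, 94.9 and 95.5%), which makes 6 genes with Hpse2, Adgrl3 and Npas3.

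Other genes without a boundary lay loosely in their interval. Sntg1, a syntrophin (938 kb), filled 49.5% of 1895 kb, and Cdh18, a cadherin (925 kb), 55.9% of 1655 kb. Lrrtm4, a synaptic leucine-rich repeat protein, filled 71.0%, Adgrb3, a brain adhesion receptor, 70.9%, Hs6st3, a heparan sulfate sulfotransferase, 70.7%, Inpp4b, a phosphoinositide phosphatase, 67.4% and Malrd1 55.2%. No boundary was called in 6 of the 17 genes grouped with the neurexins, namely Csmd3, Csmd2, Adgrl3, Adgrb3, Cntnap5c and Clstn2, and in 5 of the 14 ion channel genes or partners, against 17.2% of the 215 genes. The 37 genes had a median of 12.6 CTCF core matches per Mb, against 16.9 in the 178 with a boundary.

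**Figure D5:**
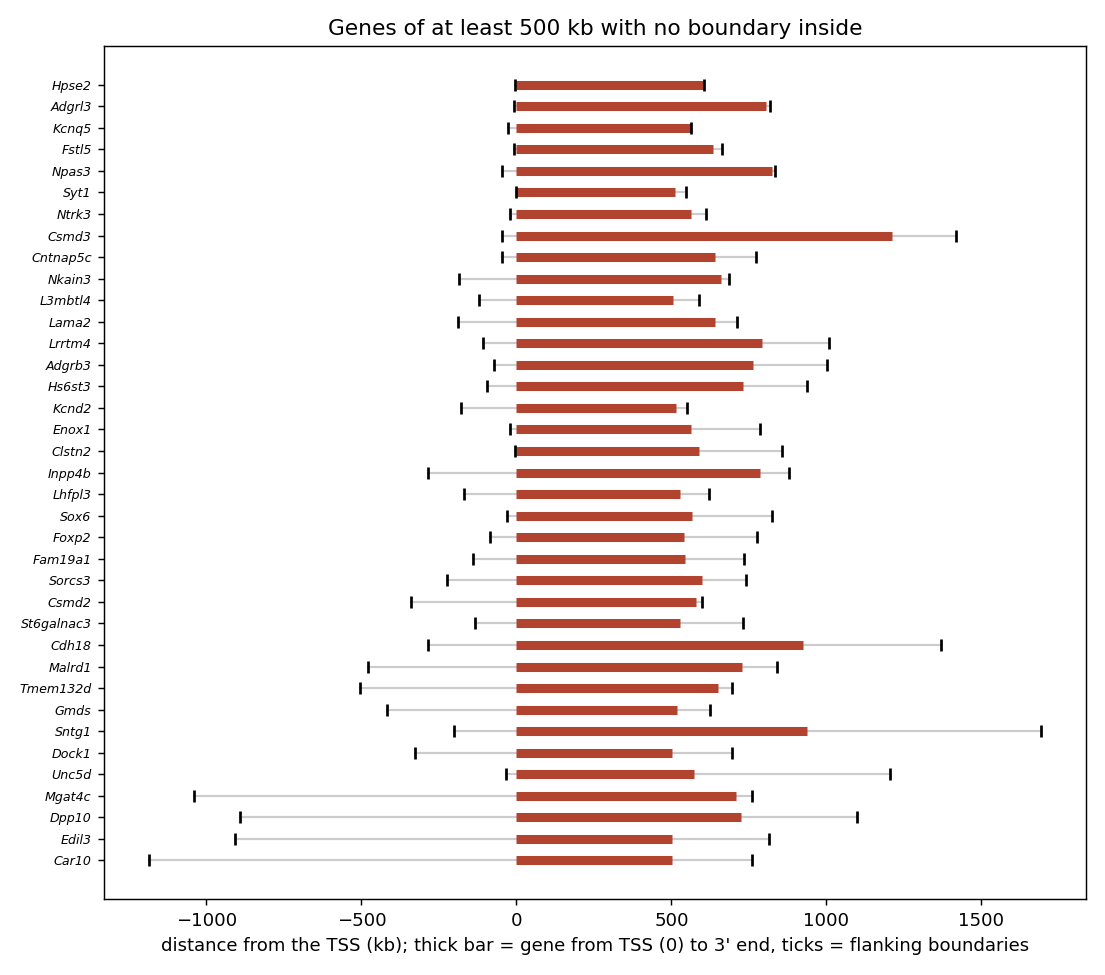
The 37 very long genes without a boundary inside, ordered by the share of the interval that the gene fills, with distance from the TSS in kb on the horizontal axis; red bars are the genes and black ticks the flanking boundaries. Hpse2 at the top fills 98.7% of its interval and Car10 at the bottom 25.9%.

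The genes just above and below the length limit show how the rule bears on these counts. Edil3 (502 kb), Dock1 (503 kb) and Car10 (504 kb) were just inside it, with no boundary. Pde1c (499 kb), Dnm3 (496 kb) and Cacna1e (494 kb) were just outside it, with 1, 2 and 1. The longest stretches without a boundary inside a gene, after Macrod2 with 1470.0 kb and Csmd3 with 1211 kb, were in Nrxn3 (1157 kb), Ptprd (1116 kb) and Magi2 (1110.0 kb). The median over the 215 genes was 511 kb, and the stretch reached 500 kb in 118 genes and 1 Mb in 8. Where 2 neighbouring boundaries lay inside the same gene, they were a median of 305 kb apart (181 pairs), against 260.0 kb for all autosomal neighbours.

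The sequence around the boundaries inside was compared with all 37217 bins of 5 kb inside the genes. A CTCF core match lay within 10 kb of 161 of 359 boundaries (44.8%, 39.6 to 50.2), against 30.3% of these bins and 59.0% of all autosomal boundaries. The share was 65.3% (57.0 to 73.0) for Strong and 30.7% (24.5 to 37.3) for Weak boundaries, so Weak ones were near the share of the bins. A match to the stricter consensus lay within 10 kb of 12.5% (9.29 to 16.4), against 2.97% of bins. Boundaries with a core match had a median score of 0.593 and those without one 0.359. A match is a description of the sequence and not measured binding.

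The matches of Dlg2, Pde4d, Cadps2 and Dlgap1 lie in soft-masked sequence, so masked and unmasked matches were counted apart. A masked core match lay within 10 kb of 24.2% (19.9 to 29.0) of boundaries, against 18.9% of bins, and an unmasked one of 26.5% (22.0 to 31.3), against 14.8% of bins. Of all core matches 58.9% were masked inside the very long genes and 70.8% in the rest of the autosomes. Core matches were also sparser inside, at 19.9 per Mb, against 36.7 per Mb outside. There were 9.66 boundaries per 100 core matches inside and 8.39 outside. The order depended on masking, with 16.4 inside and 11.8 outside per 100 masked matches, and 23.5 inside and 28.7 outside per 100 unmasked ones.

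Genes richer in core matches had more boundaries. With the genes ranked by core matches per Mb and split into 3 groups of nearly equal size, the density was 1.54 per Mb (1.25 to 1.87) in the lowest, 1.85 (1.53 to 2.22) in the middle and 2.45 (2.06 to 2.90) in the highest. No boundary was called in 20 of 72, 13 of 72 and 4 of 71 of their genes. The highest group includes Gm20388 and Fgfr2, with 73.9 and 49.0 core matches per Mb and 22 and 10 boundaries. These models span 72 and 29 other TSSs, and the split was not repeated without them. Over single genes the rank correlation was weak (0.26 over 215 genes, which share base composition and chromosome), so this is given as a description.

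Strict matches within 10 kb of a boundary inside were on the plus strand for 9 of 29 to the left of the midpoint (31.0%, 15.3 to 50.8) and 16 of 20 to the right (80%, 56.3 to 94.3). The shares over all autosomal boundaries were 35.6% and 65.5%. The interval of the left share includes an even split. Core matches inside were on the plus strand for 50.7% (42.1 to 59.3) to the left and 62% (51.7 to 71.5) to the right, against 45.3% and 55.7% over all autosomal boundaries.

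Annotated features near the boundaries were few. An exon of the gene overlapped the bin of 17.3% of boundaries (13.5 to 21.6), against 12.3% of bins, and of 27.2% of Strong ones (20.2 to 35.2). An alternative start of the same gene lay within 10 kb of 9.75% (6.89 to 13.3), against 6.65% of bins. A TSS of another protein-coding gene lay within 10 kb of 5.01%, against 2.15% of bins, and this share was 0.314% without the 6 models that span at least 5 other TSSs. Neither a protein-coding start nor a core match lay within 10 kb of 175 boundaries (48.7%, against 64.1% of bins), and these had a median score of 0.355 and were Strong in 25.7% of cases. The 33 boundaries with both a start and a core match had a median score of 0.811.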

How the data were processed

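In situ Hi-C was done on sorted Olfr17-positive neurons in 2 biological replicates. Per the labels, the authors combined the contact lists, built 1 contact matrix (GRCm38) and then called its boundaries; the deposited list gives each 5 kb bin a class and a score. The boundary caller, its window and version, the aligner and the depth were not given in the sources used here.

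Genes came from GENCODE M21 and sequence from GRCm38 (of C57BL/6J, not of 129P2/OlaHsd, so rearrangements between these strains are not seen). Promoters came from RefSeq (GRCm38.p6), matched by symbol. A boundary's position was its bin's midpoint, and the TSS was the gene's annotated 5′ end. Densities are per sequenced Mb, with exact 95% intervals. CTCF matches were exact searches of both strands. Python 3.11.15, numpy 2.4.6, scipy 1.17.1 and matplotlib 3.10.9 were used, and counting was tested on simulated positions. There were no other columns of sample values. No test was made, since replicates were pooled.

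Members and gene groups were chosen with earlier results of these data known. The genes named were the 10 longest; the 10 with most boundaries; the 5 with the highest and the 5 with the lowest density; the 10 longest without a boundary; the holders of the 10 highest scores; those with boundaries at both ends; the 5 with the longest stretches; 3 on each side of the length limit; the 3 longest of each group; and Dlg2. Other names were chosen after their values were seen, and a few genes that the rule names are not reported here.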

Additional observations from a re-analysis of the deposited data

How the results depend on the processing

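Over 12 results, 141 alternatives were computed, 22 of them chosen after seeing the data. Of the 141, 125 stayed within the interval of the value reported. This was the exact counting interval, except for the median score and the median longest stretch. For these medians it was the value plus or minus the SD of the chromosome medians. A single chromosome was left out in 76 of the 141, and none of these moved. Such alternatives keep most of the same genes, so they could hardly move. The 16 alternatives outside the interval were these. With Strong boundaries alone, the density was 0.788 per Mb, the share of genes with a boundary 49.3%, the median longest stretch 623 kb and the share of inside boundaries near a core match 65.3%. With genes of at least 750 kb, the share with a boundary was 92.2% and the outside share at the 3′ end 48.8%. With a distance of 25 kb, a boundary lay at the TSS of 17.7% and at the 3′ end of 20% of genes, and with 50 kb at 37.2% and 35.3%; over any annotated transcript start, 21.4% of genes had one within 10 kb. A core match lay within 5 kb of 29.5% and within 25 kb of 69.4% of boundaries, and a strict match within 10 kb of 12.5%. Another protein-coding TSS lay within 25 kb of 10.0%, and within 10 kb of 0.314% without the 6 models that span at least 5 other TSSs. Wider distances and a rarer motif move shares by construction, as do fewer boundaries the density, the share of genes and the stretches. For the core-match share with Strong boundaries alone and for the 3′ outside share from 750 kb, the cause was not tested.

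With each of the 19 autosomes left out in turn, the density ranged from 1.86 to 1.97 per Mb, the share of genes with a boundary from 82.0 to 83.3%, the median score from 0.416 to 0.429 and the Strong share from 39.6 to 41.7%. No paired analysis was possible because there is 1 group and its replicates were pooled into 1 list, so neither replicate could be left out. The depth is unknown, so the weakest boundary that could have been called inside a gene cannot be given.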

Other observations

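The X chromosome was outside the gene set and holds 12 protein-coding genes of at least 500 kb. They had 19 boundaries, 1.72 per Mb (1.04 to 2.69, exact 95% Poisson interval), against 2.49 per Mb over the whole X chromosome, and 3 of the 19 were Strong. Dmd, the dystrophin gene (2257 kb), had 3 Weak boundaries with a highest score of 0.398 and a stretch of 799 kb without one. Il1rapl1, a synaptic adhesion receptor (1375 kb), had 2 Weak ones with a highest score of 0.243, and Il1rapl2 (1276 kb) 1 Weak one of 0.287 and a stretch of 1144 kb without. Arhgap6 (509 kb) held 2 of the 3 Strong boundaries, with a highest score of 0.874. None was called inside Pcdh11x, a protocadherin that filled 84.4% of an interval of 735 kb, or Fgf13, which filled 36.4% of 1390.0 kb.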
